A study of Mus musculus with 2 samples.

Results

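Interferon-gamma and the type I interferons reach a cell through separate receptors that share part of their signaling. Interferon-gamma, encoded by Ifng, binds a receptor built from the chains Ifngr1 and Ifngr2, while type I interferons bind Ifnar1 and Ifnar2. The kinases Jak1 and Jak2 sit on the interferon-gamma receptor and Jak1 also serves the type I receptor, where it works with Tyk2. Socs1 and Socs3 are induced by cytokines and dampen the kinases or receptors that induced them. The 9 genes Ifng, Ifngr1, Ifngr2, Ifnar1, Ifnar2, Jak1, Jak2, Socs1 and Socs3 were taken by symbol from the 32285 genes counted in each library. Each matched 1 row. No cutoff on a measured value was applied, but earlier results of these data were known.

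CD45+ cells were sorted from tumors that MC38, a colon carcinoma cell line of the mouse, formed in WT mice. The Control library was made from tumors without irradiation and the IR library from tumors given 1 dose of 20 Gy, 4 days before collection. Tumors were pooled within each library, so each group was 1 library and no difference below has a replicate check or a p-value. The records also give the cells as CD45+CD11b+Ly6Chi, which the data went against, since T cells, natural killer (NK) cells and dendritic cells (DCs) were present.

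The deposited matrices held 48593879 UMIs (unique molecular identifiers, each marking 1 captured RNA molecule) in Control and 42406461 in IR. Cells were barcodes of at least 1000 UMIs with at least 200 genes and at most 25% mitochondrial UMIs, which left 4679 in Control and 3410 in IR, and 7 barcodes of at least 1000 UMIs occurred in both libraries. Each cell was put in a lineage by marker genes that include none of the 9 genes. The main lineages, Control and IR in turn, were T cells (424 and 272), NK cells (295 and 348), monocytes (664 and 1035), macrophages (1926 and 419) and Ccr7 Fscn1 mature DCs (128 and 155). Neutrophils numbered 29 and 225, and 82 and 94 cells had collagen genes. Barcodes that passed 2 gates were set aside as mixed, 502 in Control and 356 in IR. The 6 T cell receptor and CD3 markers summed to 5594 CPM (UMIs scaled to a total of 1000000 in the lineage) and 5400 CPM in T cells, against 53.2 and 109 CPM in monocytes. NK cells held 807 and 767 CPM of those markers, beside 1387 and 1338 CPM of the 5 NK markers.

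Levels below are CPM of UMIs summed over a lineage, with exact 95% Poisson intervals, and ratios are log2 of IR over Control with exact 95% intervals. Both cover counting error only. A gene was called different where it had at least 20 UMIs over both libraries, a ratio of 1.5-fold or more and Poisson intervals that did not overlap. The assay counts 3' ends with a capture that varies by gene, so levels are compared within a gene and not between genes.

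Most Ifng was in lymphocyte barcodes. Those in the T or NK gate, mixed ones included, held 85.0% of the Ifng UMIs of all cells in Control and 88.3% in IR. In CD8 T cells it stood at 503 CPM (468 to 541, 733 UMIs) in Control and 192 CPM (169 to 217, 251 UMIs) in IR, a log2 ratio of -1.39 (-1.61 to -1.18). In CD4 T cells without Foxp3 it was 248 CPM (184 to 325) and 363 CPM (292 to 445). These intervals overlapped, and the log2 ratio was 0.55 (0.04 to 1.07). NK cells held 109 CPM (96.0 to 124) and 106 CPM (95.7 to 118), with a log2 ratio of -0.04 (-0.27 to 0.20). The NK interval of the ratio spans 0. Regulatory T cells, the Foxp3 cells, had only 5 and 3 Ifng UMIs, or 24.5 CPM (7.96 to 57.2) and 14.9 CPM (3.07 to 43.5).

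In Control the order from high to low was CD8 T cells, CD4 T cells, other T cells (141 CPM, 114 to 172), NK cells and regulatory T cells. The other T cells had no subset marker, or had CD8 markers together with Cd4 or Foxp3. The CD8 interval was apart from that of CD4 T cells, and so was the CD4 interval from that of other T cells. The NK interval overlapped that of other T cells. In IR the order began with CD4 T cells, followed by CD8 T cells, NK cells and other T cells (94.2 CPM, 69.7 to 124), and the last pair overlapped. Among other lineages, cDC1 and B cells had no Ifng UMI in either library. Mature DCs had 0 UMIs in Control, a count that allows up to 2.89 CPM (3 counts), and 6 in IR (3.57 CPM, 1.31 to 7.77).

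**Figure D1:**
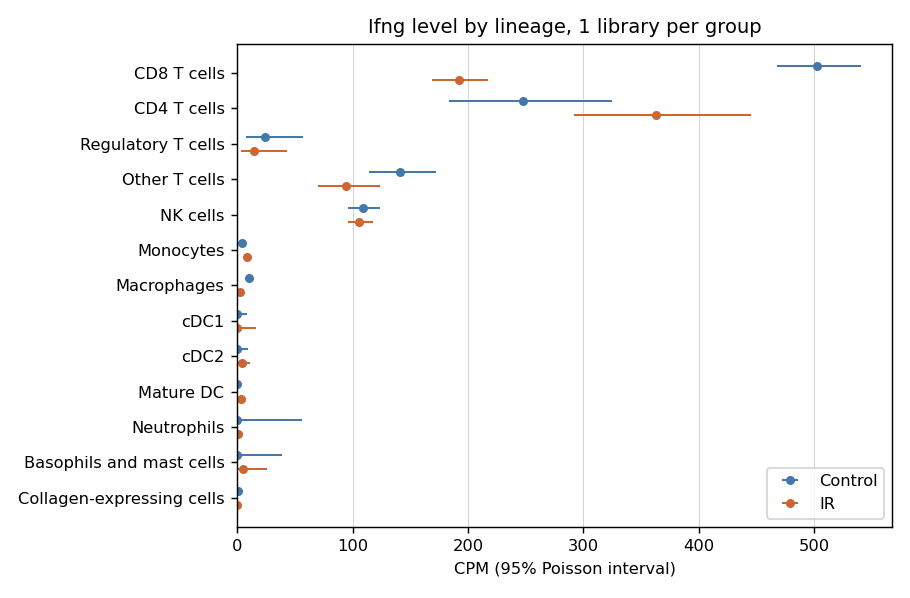
Ifng level in CPM (x axis, from 0) in 13 lineages (y axis) for the Control (blue) and IR (orange) libraries. Points are summed UMIs of 1 library and bars the exact 95% Poisson interval. The Control CD8 T cells stand highest at 503 CPM, the NK cells lie at 109 and 106 CPM, and the myeloid lineages lie near 0.

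T cells as a whole held 347 CPM (324 to 370) of Ifng in Control and 173 CPM (156 to 191) in IR, a log2 ratio of -1.00 (-1.18 to -0.83), or 2.01-fold higher in Control. Over all cells, mixed and ungated barcodes included, Ifng was 43.8 CPM (41.8 to 45.8) and 40.7 CPM (38.7 to 42.8). These intervals overlapped, and the log2 ratio was -0.11 (-0.20 to -0.01). Mixed barcodes went the other way, at 63.9 CPM (57.9 to 70.4) and 92.3 CPM (85.1 to 99.9). Of the 9 genes, Ifng was the only one called in T cells, where 5.18% of all 9414 genes tested were called. Gated cells held 74.4% of the Ifng UMIs of all Control cells and 56.9% of those of all IR cells. Among the Ifng UMIs of gated cells, T cells held 65.5% (886 of 1352, Clopper-Pearson 62.9 to 68.1) in Control and 45.1% (395 of 875, 41.8 to 48.5) in IR. NK cells held 18.5% (16.5 to 20.7) and 42.3% (39.0 to 45.6). Of the NK cells with an Ifng UMI, 49 of 95 in Control and 80 of 142 in IR also had 2 or more T cell markers, and their part in the NK share was not tested. The NK share of the UMIs thus differed between the libraries while the intervals of the NK level overlapped, and NK cells made up 6.30% of Control cells and 10.2% of IR cells.

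The size of the T cell difference depended on a few cells and on the gate. In Control, 1 CD8 T cell held 184 of the 733 Ifng UMIs, and the next cells held 34 and 22. Without that cell the CD8 level was 378 CPM (347 to 412), against 176 CPM (154 to 201) in IR without its highest cell, for a log2 ratio of -1.10. The CD4 difference rested on 1 IR cell with 62 of 92 UMIs, and without the highest cell of each library the CD4 levels were 215 CPM in Control (156 to 289) and 131 CPM in IR (88.3 to 187). The order of the libraries in CD4 T cells therefore turned with 1 cell in each. The first place in IR turned too, since without those cells CD8 T cells were at 176 CPM and CD4 T cells at 131 CPM, with overlapping intervals.

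**Figure D2:**
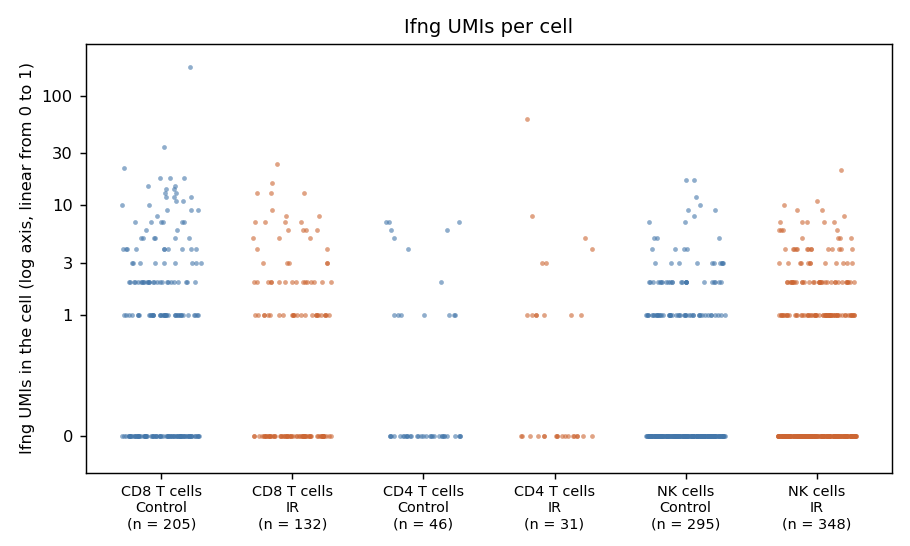
Ifng UMIs in each CD8 T cell, CD4 T cell and NK cell of the Control (blue) and IR (orange) libraries. Each point is a cell, spread sideways for visibility, and the y axis is logarithmic above 1 and linear from 0 to 1. Most cells lie at 0 to 3 UMIs, with 1 Control CD8 T cell at 184 and 1 IR CD4 T cell at 62.

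Of the alternatives tried, counting mixed barcodes changed the T cell ratio most, and it was chosen after the data were seen, as was leaving out the highest cell. Barcodes that passed the T gate and also held the shared monocyte and macrophage genes numbered 280 in Control and 151 in IR. Their Ifng level was 74.8 CPM in Control (66.4 to 83.9) and 110 CPM in IR (98.8 to 122), so in these barcodes IR was the higher library. When all barcodes in the T gate were counted, mixed or not, the levels were 178 CPM (168 to 188) and 128 CPM (120 to 137), and the T cell log2 ratio was -0.47. Per barcode, these held 1.64 Ifng UMIs (1.55 to 1.73) in Control and 1.75 (1.63 to 1.86) in IR, and the intervals overlapped. Per unmixed T cell the values were 2.09 (1.95 to 2.23) and 1.45 (1.31 to 1.60). The direction of a per-barcode comparison thus turned with the treatment of mixed barcodes, and which barcodes held 2 cells was not tested.

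The share of cells with an Ifng UMI was compared after each cell was thinned to 1000 UMIs, since deeper cells show more genes. It was 25.4% of 205 Control CD8 T cells (Clopper-Pearson 19.6 to 31.9) and 16.7% of 132 IR CD8 T cells (10.7 to 24.1), and these intervals overlapped. In NK cells it was 10.8% (7.54 to 15.0) and 12.6% (9.34 to 16.6). Without thinning, 59.0% and 50.8% of CD8 T cells and 32.2% and 40.8% of NK cells had an Ifng UMI, at median depths of 6113 and 7448 UMIs in CD8 T cells and 6620 and 6570 in NK cells. Free RNA would account for 1.74% and 8.67% of the Ifng level of T cells and for 2.09% and 6.23% of that of NK cells. Of monocytes thinned the same way, 0.301% (0.0365 to 1.08) and 0.386% (0.105 to 0.987) had an Ifng UMI. Their median depths were 5714 and 8113 UMIs before thinning. Their share of free RNA was estimated at 4.68% and 7.37% from T and NK cell markers. The share in CD8 T cells was estimated from C1qa, C1qb and C1qc, so the shares cannot be ranked.

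Cells with an Ifng UMI also had more of the chemokine Ccl3. In Control CD8 T cells, Ccl3 was 694 CPM (643 to 748) in the 121 cells with an Ifng UMI and 74.4 CPM (52.1 to 103) in the 84 without. In IR CD8 T cells it was 405 CPM (363 to 451) and 64.1 CPM (43.6 to 91.0), so both libraries showed it. In NK cells the Ccl3 difference was 3.28 on the log2 scale in Control and 2.02 in IR. Xcl1, a chemokine for cDC1, was 1034 and 258 CPM in Control CD8 T cells with and without Ifng, but 125 CPM (102 to 151) and 143 CPM (111 to 181) in IR CD8 T cells, with overlapping intervals. Havcr2, which encodes the inhibitory receptor Tim-3, was higher in CD8 T cells with an Ifng UMI by 1.20 in Control and 1.16 in IR. Pdcd1, which encodes PD-1, had overlapping intervals in CD8 T cells of both libraries (231 and 242 CPM in Control, 252 and 265 CPM in IR). The cells with an Ifng UMI were deeper, with a median of 6813 against 4334 UMIs in Control CD8 T cells and 8943 against 5647 in IR CD8 T cells, and the part of depth in these values was not tested.

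A low Ifng level was also read in monocytes and macrophages, in opposite directions. Monocytes held 4.23 CPM (2.55 to 6.61, 19 UMIs) in Control and 8.40 CPM (6.71 to 10.4, 85 UMIs) in IR. Macrophages held 10.5 CPM (9.07 to 12.1, 195 UMIs) and 2.67 CPM (1.42 to 4.56, 13 UMIs). In Control macrophages 1 barcode held 86 of the 195 UMIs, and without it the level was 5.87 CPM (4.82 to 7.08). Among macrophage barcodes with Ifng, 35 of 50 in Control and 3 of 6 in IR also had 2 or more T cell markers. Among monocyte barcodes with Ifng, 5 of 13 in Control and 24 of 38 in IR did. The same share was not counted in barcodes without Ifng. All 6 T cell markers and all 5 NK markers were detected in both lineages, with the 6 T cell markers at 95.3 and 65.9 CPM in macrophages and 53.2 and 109 CPM in monocytes, so their sum moved in the same direction as Ifng. Free RNA was scaled in both lineages by the same T and NK cell markers. That estimate would give 2.39 and 8.48 CPM of Ifng in monocytes and 4.38 and 4.97 CPM in macrophages. In IR neither lineage was above it. Lymphocyte RNA from any source raises this estimate, so it is not separate from the marker sums. In IR neutrophils, scaled by C1qa, C1qb and C1qc instead, an estimate of 19.0 CPM stood beside 0.849 CPM observed. Such estimates can thus run high. With the monocyte list without Plac8 and Ly6c2 the log2 ratio was -0.56 in macrophages, under 1.5-fold, and 1.92 in monocytes. With 10 CPM added to both libraries it was -0.69 in macrophages and 0.37 in monocytes. The part of free RNA and of mixed barcodes in these levels was not tested.

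Genes whose levels were most like Ifng over 26 points (13 lineages in 2 libraries, log2 of CPM + 10, 11351 genes compared) were the NKG2 receptor genes Klrc1 and Klrc2, the death ligand gene Fasl (Pearson r 0.96 for each), Thy1 (0.95) and Cd96 (0.94). The points share their libraries and depth, and the values are a description.

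The chains of the interferon-gamma receptor were spread unevenly over the cells. Ifngr1, the ligand-binding chain, was highest in T and NK cells. It stood at 532 CPM in Control (502 to 562) and 640 CPM in IR (614 to 667) in NK cells, and at 489 CPM (463 to 517) and 577 CPM (546 to 609) in T cells. The IR levels were above the Control intervals in both lineages, with log2 ratios of 0.27 (0.17 to 0.37) and 0.24 (0.13 to 0.35), below the 1.5-fold limit. Monocytes held 188 CPM (175 to 201) and 203 CPM (194 to 212), macrophages 142 CPM (137 to 148) and 137 CPM (127 to 147), and mature DCs 58.8 CPM (45.0 to 75.5) and 64.3 CPM (52.7 to 77.6). Ifngr1 did not differ beyond counting error between the libraries in these 3 myeloid lineages.

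Ifngr2, the chain that brings Jak2 to the receptor, had its lowest level in NK cells, whose Ifngr1 was high. The other T cells, at 548 and 703 CPM of Ifngr1, held 40.7 and 42.3 CPM of Ifngr2, so the contrast was weaker in that group. NK cells had 7 Ifngr2 UMIs in Control and 11 in IR, or 3.06 CPM (1.23 to 6.30) and 3.16 CPM (1.58 to 5.65). These levels are no higher than the 3.31 and 4.11 CPM that free RNA would give in NK cells. Ifngr2 was thus not detectable there above that estimate at this depth. CD8 T cells had 16 Ifngr2 UMIs in Control, with an interval of 6.28 to 17.8 CPM, and 14 in IR, or 10.7 CPM (5.84 to 17.9), beside 8.55 and 13.1 CPM expected from free RNA, which is also near background. In contrast, monocytes held 98.8 CPM (89.9 to 108) and 107 CPM (101 to 113), macrophages 89.6 CPM (85.3 to 94.0) and 100 CPM (91.7 to 110), and mature DCs 86.7 CPM (69.7 to 107) and 104 CPM (88.7 to 120). Monocytes, macrophages and mature DCs had overlapping intervals and do not separate from each other, in either library. Collagen-expressing cells lay lower at 33.3 CPM (25.7 to 42.5) and 34.6 CPM (28.6 to 41.5). Among T cell subsets, IR regulatory T cells had 84.4 CPM (49.2 to 135, 17 UMIs), apart from IR CD8 T cells. In Control, regulatory T cells had 24.5 CPM (7.96 to 57.2, 5 UMIs), which overlapped the IR level. Their log2 ratio was 1.78 (0.29 to 3.58), from these few UMIs.

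**Figure D3:**
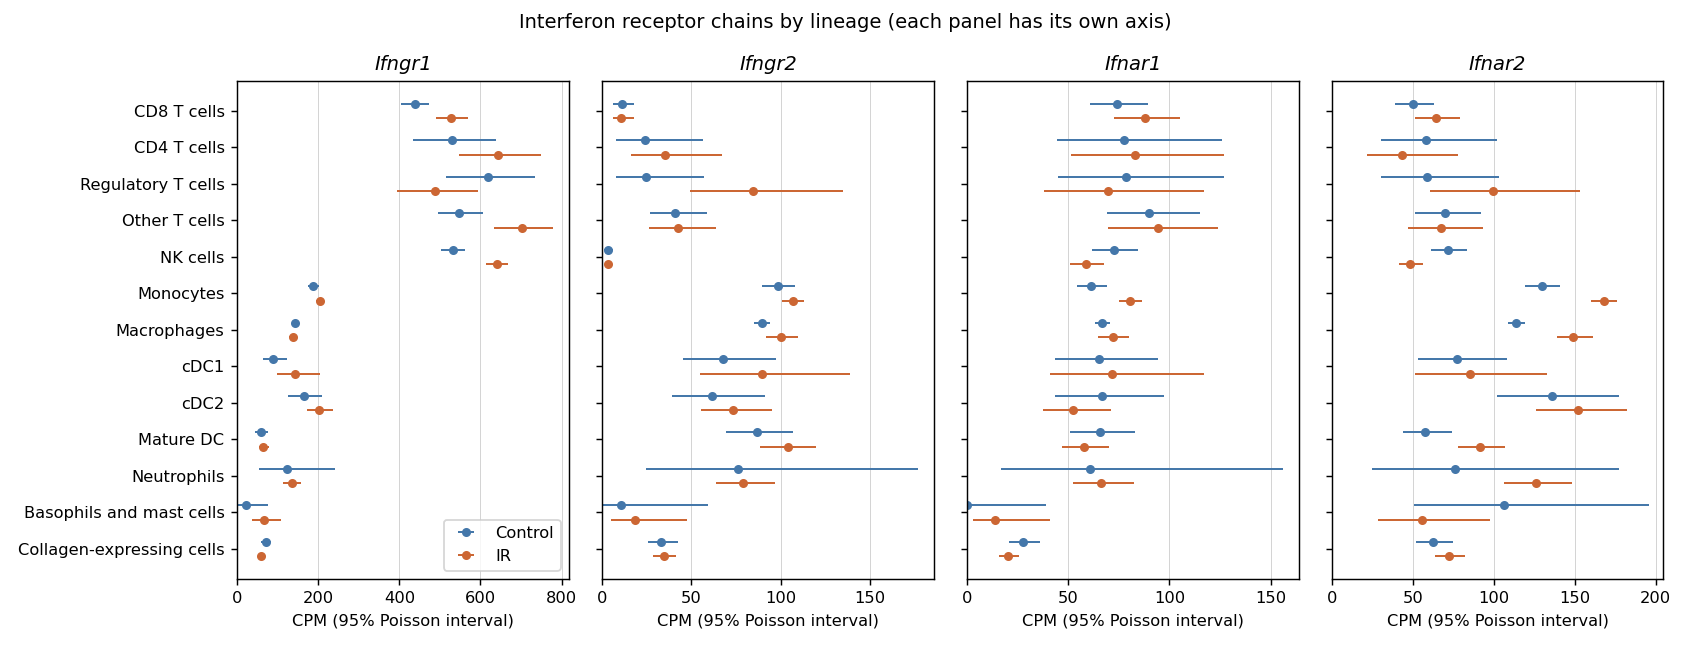
Level in CPM (x axes, from 0, with a separate scale in each panel) of Ifngr1, Ifngr2, Ifnar1 and Ifnar2 in 13 lineages (y axis) in Control (blue) and IR (orange). Points are summed UMIs of 1 library and bars exact 95% Poisson intervals. Ifngr1 is highest in T and NK cells, Ifngr2 is lowest in NK cells at 3.06 and 3.16 CPM, and Ifnar2 is higher in monocytes and macrophages than in T or NK cells.

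The contrast can be read as the share of Ifngr2 among the UMIs of both chains, in which the depth of a lineage cancels. It was 0.571% (0.230 to 1.17) and 0.491% (0.245 to 0.877) in NK cells and 2.45% (1.40 to 3.94) and 1.98% (1.09 to 3.30) in CD8 T cells. In monocytes the share was 34.5% in each library (31.9 to 37.1 and 32.8 to 36.2), and in macrophages 38.7% (37.2 to 40.1) and 42.3% (39.5 to 45.2). Mature DCs had the highest share among lineages with over 100 UMIs of both chains, 59.6% (51.3 to 67.5) and 61.7% (55.8 to 67.4). In each of these 5 lineages the intervals of both libraries overlapped. Overlap alone does not place a difference within counting error, and the macrophage Ifngr2 level had a log2 ratio of 0.16 (0.02 to 0.31). Mature DCs lay apart from monocytes and macrophages. The shares of NK cells and CD8 T cells rest on Ifngr2 counts near background, of which free RNA would give 108% and 130% in NK cells and 77.8% and 122% in CD8 T cells. The gap between these 2 lineages therefore cannot be read as a difference in receptor chains, as free RNA made up an estimated 4.47% and 5.75% of NK cell UMIs and 11.5% and 18.3% of CD8 T cell UMIs.

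**Figure D4:**
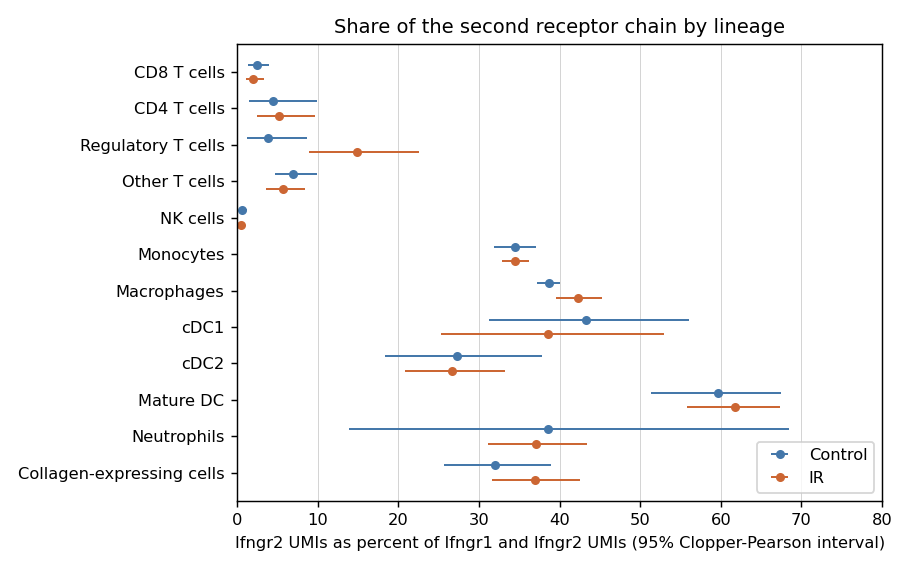
Ifngr2 UMIs as a percent of Ifngr1 and Ifngr2 UMIs (x axis) in 12 lineages (y axis), Control in blue and IR in orange, with 95% Clopper-Pearson intervals. NK cells lie at 0.571% and 0.491%, monocytes at 34.5% in each library and mature DCs at 59.6% and 61.7%.

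On mm10 the genes of 3 of these chains and that of a related one stand side by side on chromosome 16 (GENCODE M21 on GRCm38, the same build). Ifnar2 lies at chr16:91372783-91405589, Il10rb (a chain of the IL-10 and interferon-lambda receptors) at chr16:91406164-91425834, Ifnar1 at chr16:91485238-91507441 and Ifngr2 at chr16:91547072-91565623, all on the plus strand. Ifngr1 lies on chromosome 10 (chr10:19591949-19610229, plus strand). Il10rb was not called in T cells, NK cells or monocytes, with log2 ratios of -0.16, 0.02 and 0.50. Its monocyte level was 71.0 CPM in Control and 101 CPM in IR.

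The type I receptor chains were found in every main lineage. Across T cells, NK cells, monocytes, macrophages and mature DCs, Ifnar1 was the most even of the receptor chains. It was 79.1 CPM (68.5 to 90.8) and 87.1 CPM (75.4 to 100) in T cells. NK cells held 72.5 CPM (61.9 to 84.4) and 58.8 CPM (51.1 to 67.5) of Ifnar1, and macrophages 66.8 CPM (63.2 to 70.7) and 72.3 CPM (64.9 to 80.2). In monocytes it was 61.4 CPM in Control (54.4 to 69.1) and 80.7 CPM in IR (75.2 to 86.4), with intervals apart and a log2 ratio of 0.39 (0.19 to 0.59). Collagen-expressing cells lay below these lineages, at 27.7 CPM (20.8 to 36.1) and 20.1 CPM (15.6 to 25.5).

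Ifnar2, the chain with the higher affinity for ligand, was higher in monocytes than in T or NK cells in both libraries. Its monocyte level was 130 CPM in Control (119 to 141) and 168 CPM in IR (160 to 176), and its macrophage level 114 CPM (109 to 119) and 149 CPM (139 to 161). Both differences were beyond counting error but under 1.5-fold, with log2 ratios of 0.37 (0.23 to 0.51) and 0.39 (0.27 to 0.51). In mature DCs Ifnar2 was called higher in IR, from 57.8 CPM (44.1 to 74.4) to 91.6 CPM (77.7 to 107). This log2 ratio of 0.66 (0.23 to 1.12) fell under 1.5-fold without mitochondrial and ribosomal protein genes (0.56) and with 10 CPM added (0.58). NK cells went the other way, with 71.6 CPM in Control (61.1 to 83.4) and 48.2 CPM in IR (41.2 to 56.1), a log2 ratio of -0.57 (-0.89 to -0.25) that was -0.20 when mixed barcodes in the NK gate were counted. Plasmacytoid DCs, of which only 8 and 9 were gated, had the highest Ifnar2 levels, 292 CPM (181 to 446) and 339 CPM (227 to 487).

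The ligands themselves were rare. Over the 19 listed type I and lambda interferon genes, all cells together held 10 UMIs in Control and 53 in IR. Ifnb1, which encodes interferon-beta, made up 6 of these in Control, all in macrophages, and 46 in IR, of which 39 were in monocytes. Against the floor of 3 counts in Control monocytes, the IR level of 3.86 CPM was at least 5.77-fold higher. However, only 5 of the 1035 IR monocytes had an Ifnb1 UMI, and 1 of them held 35 of the 39 UMIs.

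Jak1 levels were higher in T and NK cells than in monocytes or macrophages in both libraries. Jak1 was 361 CPM in Control (336 to 386) and 295 CPM in IR (278 to 314) in NK cells, and 299 CPM (278 to 321) and 225 CPM (206 to 246) in T cells. Both were lower in IR beyond counting error, with log2 ratios of -0.29 (-0.42 to -0.15) and -0.41 (-0.57 to -0.24), and under 1.5-fold. The T cell ratio was -0.17 when mixed barcodes in the T gate were counted. In monocytes Jak1 was 147 CPM (136 to 159) and 148 CPM (140 to 155), the same within counting error.

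Jak1 was called lower in IR in neutrophils, from 380 CPM (246 to 561, 25 UMIs) to 162 CPM (140 to 187). It was also called lower in basophils and mast cells, from 744 CPM (580 to 940) to 470 CPM (382 to 571). The basophil and mast cell log2 ratio fell under 1.5-fold at a minimum of 2000 UMIs (-0.48) and with 1 more marker needed (-0.55). The Control neutrophils numbered only 29, with 65761 UMIs in all.

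Jak2 was highest in mature DCs, at 442 CPM in Control (403 to 485) and 332 CPM in IR (305 to 361), a log2 ratio of -0.41 (-0.59 to -0.23). Mature DCs stood apart in both libraries from the next lineage by mean level, basophils and mast cells (266 CPM, 172 to 392, and 214 CPM, 157 to 285). Monocytes held 117 CPM (108 to 128) and 116 CPM (110 to 123), for a log2 ratio of -0.01 (-0.16 to 0.14), and macrophages 56.7 CPM (53.3 to 60.2) and 63.2 CPM (56.4 to 70.7). NK cells, whose Ifngr2 was no higher than the free RNA estimate, were also low in Jak2, at 28.8 CPM (22.3 to 36.7) and 27.0 CPM (21.8 to 33.0). Tyk2 and Jak3, the other kinases of the family, were not called in T cells, NK cells or monocytes.

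The SOCS genes were the members most often higher in IR. Socs3 was called higher in CD8 T cells, monocytes, mature DCs, neutrophils, basophils and mast cells, and collagen-expressing cells. That is 6 of the 10 populations compared, which include both CD8 T cells and T cells as a whole. In T cells as a whole Socs3 was not called, with a log2 ratio of 0.55 (0.29 to 0.82). Socs1 was called higher in macrophages and cDC2. Neither was called lower in any of the 10. At 2-fold, Socs3 was called in 1 of the 10, basophils and mast cells, and Socs1 in 1, cDC2. The cDC2 ratio of Socs1 fell under 1.5-fold, to 0.43, with 1 more marker needed in the gate. The Socs3 ratio also fell under 1.5-fold in neutrophils, to 0.34, at a minimum of 2000 UMIs. In collagen-expressing cells it fell to 0.58 without the top 6% of barcodes by Scrublet, a score for 2 cells in a droplet.

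In monocytes Socs3 was 292 CPM (276 to 308, 1311 UMIs) in Control and 452 CPM (439 to 465, 4572 UMIs) in IR, a log2 ratio of 0.63 (0.54 to 0.72). With the monocyte list shorn of Plac8 and Ly6c2 the ratio was 0.77. In macrophages it was 200 CPM (193 to 206) and 243 CPM (229 to 257), with intervals apart and a ratio of 0.28 (0.19 to 0.38) under the 1.5-fold limit. Mature DCs held 83.8 CPM (67.2 to 103) and 157 CPM (139 to 177), and collagen-expressing cells 138 CPM (122 to 155) and 241 CPM (225 to 259). Neutrophils held 243 CPM (139 to 395) in Control, from 16 UMIs, and 481 CPM (442 to 522) in IR. CD8 T cells held 58.4 CPM (46.6 to 72.2) and 98.5 CPM (82.2 to 117). Free RNA would give 20.8 and 45.7 CPM of Socs3 in CD8 T cells, and its part in this call was not tested. In NK cells the intervals overlapped at 74.6 CPM (63.9 to 86.7) and 90.4 CPM (80.7 to 101).

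Socs1 was 84.6 CPM in Control (76.3 to 93.5) and 119 CPM in IR (113 to 126) in monocytes, a log2 ratio of 0.50 (0.33 to 0.67), and so under 1.5-fold. In macrophages it was 61.1 CPM (57.6 to 64.7) and 111 CPM (102 to 121), a ratio of 0.86 (0.71 to 1.01). In cDC2 it was 46.1 CPM (27.3 to 72.8, 18 UMIs) and 99.5 CPM (78.4 to 125, 76 UMIs). Lymphocytes did not show it, with 90.4 CPM in each library in NK cells (log2 ratio 0.00, -0.26 to 0.26) and 125 CPM (112 to 140) and 141 CPM (126 to 158) in T cells. Counting mixed barcodes in the T gate gave a T cell ratio of 0.53. The empty droplets held 66.3 CPM (54.4 to 79.9) of Socs1 in Control against 107 CPM (88.5 to 128) in IR, and 181 CPM (161 to 202) and 250 CPM (221 to 281) of Socs3. With the expected free RNA taken off, the monocyte ratios were 0.49 for Socs1 and 0.65 for Socs3.

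**Figure D5:**
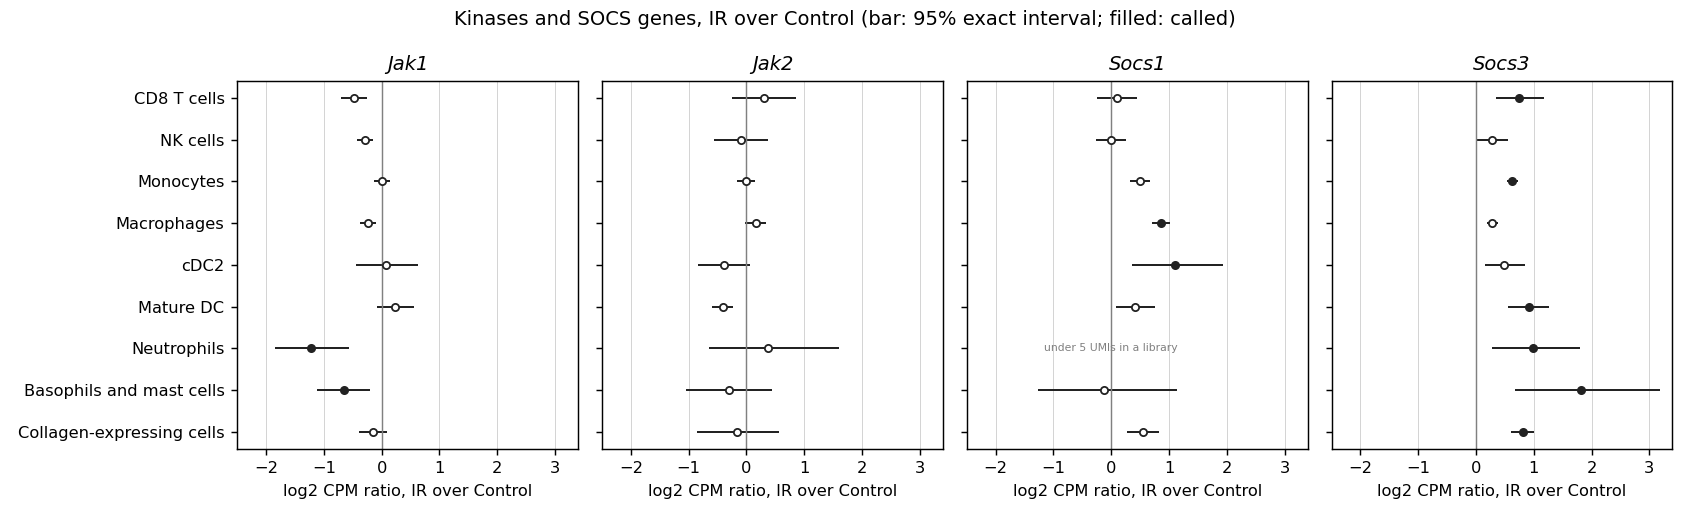
Log2 CPM ratio of IR over Control (x axes) for Jak1, Jak2, Socs1 and Socs3 in 9 lineages (y axis), with exact 95% intervals. Filled points were called, open points were not, and Socs1 in neutrophils is left out because Control held 1 UMI. Called points of Jak1 lie left of 0 and those of Socs1 and Socs3 lie right of 0.

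Counted per lineage, the called members were few. In CD8 T cells 2 of 9 were called (Ifng lower and Socs3 higher), against 5.16% of all genes. In NK cells 0 of 8 tested were called, against 5.67%. In monocytes 2 of 9 were called (Ifng and Socs3, both higher), against 7.50%, and in macrophages 2 of 9 (Ifng lower, Socs1 higher), against 11.1%. The Ifng call is counted in both by the rule alone, as its IR level was no higher than the free RNA estimate. That estimate was scaled by lymphocyte markers. The count was 1 of 8 in cDC2 (2.76% of all genes), 2 of 8 in mature DCs (6.82%), 2 of 8 in neutrophils (7.07%), 2 of 5 in basophils and mast cells (6.52%) and 1 of 8 in collagen-expressing cells (6.96%). The median log2 ratio of all genes lay between -0.09 and 0.07 in these populations.

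The promoters of Socs1 and Socs3 are shown because these members were higher in IR in several lineages, and because signal transducers of the interferon receptors bind known motifs. The GAS motif was searched as TTCNNNGAA, which reads the same on both strands, and a core of the interferon-stimulated response element (ISRE) as GAAA, any 2 bases and GAAA again, or TTTC, any 2 bases and TTTC on the other strand. Each window holds the 250 bases before the RefSeq start (GRCm38.p6), written 5′ to 3′ along the gene, with matches in capitals. Socs1 (chr16:10785537-10785786, minus strand) had 2 overlapping ISRE core matches, GAAAGAGAAA and GAAACCGAAA, which begin 83 and 77 bases before the start. Socs3 (chr11:117969367-117969616, minus strand) had 1 GAS match, TTCTTAGAA, beginning 154 bases before it.
Socs1: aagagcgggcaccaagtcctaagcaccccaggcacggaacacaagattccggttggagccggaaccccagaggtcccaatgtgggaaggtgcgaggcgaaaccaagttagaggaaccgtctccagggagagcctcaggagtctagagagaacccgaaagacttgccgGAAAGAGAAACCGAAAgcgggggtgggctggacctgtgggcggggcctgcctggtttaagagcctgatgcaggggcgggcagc
Socs3: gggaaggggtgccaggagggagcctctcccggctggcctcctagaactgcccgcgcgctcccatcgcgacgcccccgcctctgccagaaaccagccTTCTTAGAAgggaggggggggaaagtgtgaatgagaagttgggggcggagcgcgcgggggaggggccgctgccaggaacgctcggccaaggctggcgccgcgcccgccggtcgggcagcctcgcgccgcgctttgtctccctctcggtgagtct

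All 9 members matched a RefSeq promoter window. A GAS match was also found in the windows of Ifng (TTCAGAGAA) and Ifnar2 (TTCCTGGAA), and neither motif in those of Ifngr1, Ifngr2, Ifnar1, Jak1 and Jak2. Over all 32851 windows of the same length, 7.02% held the GAS motif and 2.98% the ISRE core. The matches describe letters and are not evidence of binding.

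Other genes of the pathway gave a frame for these values. Their lists were chosen with earlier results of these data known, so the counts are a description. Of all genes tested, 5.18% were called in T cells, 5.67% in NK cells, 7.50% in monocytes, 11.1% in macrophages and 6.82% in mature DCs. Of the 6 listed targets that lean to type I interferon (Isg15, Ifit1, Ifit3, Rsad2, Oas3 and Cmpk2), all 6 were called higher in IR in T cells, monocytes, macrophages and mature DCs, and 4 of 6 in NK cells. Isg15, a ubiquitin-like protein, went from 177 to 912 CPM in monocytes and from 47.0 to 367 CPM in T cells. The median log2 ratio of the list was 2.42 in monocytes and 2.75 in T cells.

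Of the 6 targets that lean to interferon-gamma, 3 were called lower and 1 higher in both monocytes and macrophages. Cxcl9, a chemokine for activated T cells, was 633 CPM in Control and 198 CPM in IR in monocytes, and 927 and 358 CPM in macrophages. Ciita, the master regulator of MHC class II, was 41.4 and 22.3 CPM in monocytes, and H2-Ab1, an MHC class II chain, was 2806 and 1657 CPM. Irgm1, an interferon-inducible GTPase, was the one called higher, at 99.3 and 171 CPM in monocytes. In NK cells 4 of 5 tested were called higher, among them Irgm1 (18.3 and 32.7 CPM), Cd74 (291 and 468 CPM) and H2-Ab1 (89.9 and 200 CPM), and 1 lower, Cxcl9, at 27.1 and 4.59 CPM. Cxcl9, Cd74 and H2-Ab1 are abundant in myeloid cells, and the part of free RNA in their NK cell values was not tested.

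Among the 6 signal transducers, 3 were called higher in T cells, 2 each in NK cells, monocytes and mature DCs, and 1 in macrophages, and none was called lower. Stat2 was 39.4 and 79.4 CPM in monocytes, and 24.7 and 62.2 CPM in macrophages.

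Of the 15 other negative regulators, few were called. Usp18, which blocks the type I receptor at Ifnar2, was called higher in T cells, NK cells, monocytes, macrophages and mature DCs, and went from 21.8 to 88.5 CPM in monocytes and from 3.91 to 39.8 CPM in T cells. Cish, a further SOCS family member, was called higher in monocytes (70.4 and 116 CPM) and mature DCs (64.6 and 164 CPM). In NK cells Socs2 was called higher (4.80 and 12.3 CPM) and Socs6 lower (17.0 and 8.32 CPM). The median log2 ratio of this list was 0.10 in monocytes and -0.12 in NK cells.

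Of the 12 genes known to drive Ifng, 7 of 10 tested were called higher in monocytes and 5 of 10 in macrophages, and none lower. Il15 was 8.91 and 25.3 CPM in monocytes, and Il18 was 31.4 and 53.8 CPM. The called monocyte genes included Eomes (0.445 and 7.51 CPM), Il12rb1, Il12rb2 and Il18r1, and the T cell markers in monocytes were 53.2 and 109 CPM. Not all of these genes were confined to lymphocytes. Il12rb2 was 44.3 and 74.4 CPM in mature DCs, and Il18r1 was 181 and 116 CPM in basophils and mast cells. The part of lymphocyte RNA in the monocyte values was not tested. Il12b, which encodes a chain of IL-12, was 560 CPM in Control and 229 CPM in IR in mature DCs and was called lower. On the side of the receiving cells, Il12rb2 was called higher in T cells (45.0 and 68.3 CPM) and Il12rb1 in NK cells (27.9 and 46.2 CPM).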

How the data were processed

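Droplet single-cell RNA sequencing (10x Chromium 3' v3.1) was done by the authors on pooled tumors, 1 Control and 1 IR library, and raw UMI counts per gene and barcode were deposited without a cell filter. The submitters' notes name Cell Ranger 6.0.1 and mm10, while the matrix headers name Cell Ranger 4. The members and gene lists were chosen with earlier results of these data known.

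Barcodes of at least 1000 UMIs, 200 genes and at most 25% mitochondrial UMIs were gated on marker lists whose cutoffs were set on marker values alone, after these were seen. Barcodes in 2 gates were left out as mixed. Scrublet (scanpy 1.11.5) marked 0 cells by its automatic threshold, which is taken as not having worked, so removal of its top 6% was an alternative only. The study used DoubletFinder, not used here.

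Counts were summed per library and lineage and given as CPM with exact Poisson intervals, ratios with exact conditional binomial intervals and shares with Clopper-Pearson intervals (95%, scipy 1.17.1, Python 3.11.15). With 1 library per group no test was made. Named genes were all 9 members, and genes of the lists called in monocytes, macrophages, T cells or NK cells, at most 6 per list and direction. Mature DC values of those lists are given beside them. Expected free RNA was the profile of droplets ranked 45001 to 90000 by UMIs, scaled for each lineage by genes of other lineages. These were the T and NK cell markers in monocytes and macrophages, and C1qa, C1qb and C1qc in the rest. The expected level exceeded the observed level of some genes in some lineages, so it can run high. The call rule and intervals were tested on simulated Poisson counts. These hold no spread between cells or tumors, so that test does not cover such spread. TMM factors came from edgeR 4.0.16 in R 4.3.3.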

Additional observations from a re-analysis of the deposited data

Results flagged for a closer look

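Ifng differed between the libraries in opposite directions in different lineages, with a log2 ratio of IR over Control of -1.00 in T cells, -1.39 in CD8 T cells and -1.98 in macrophages, and 0.99 in monocytes. With 1 library per group, the difference between lineages was not tested. The macrophage and monocyte ratios rest on low levels. In IR these were no higher than the free RNA estimate scaled by lymphocyte markers (2.67 against 4.97 CPM and 8.40 against 8.48 CPM). The ratios were -0.56 and 1.92 with the monocyte list without Plac8 and Ly6c2, and -0.69 and 0.37 with 10 CPM added.

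In droplets without a cell, which the comparisons do not use, some members were above the Control level in the IR library: Ifng at 115 CPM against 51.1 CPM, Socs1 at 107 CPM against 66.3 CPM and Socs3 at 250 CPM against 181 CPM. In mixed barcodes, left out of the lineages, Ifng was 110 CPM in IR and 74.8 CPM in Control where the T gate and the myeloid list were both passed, and 94.5 and 32.8 CPM where the NK gate and the myeloid list were. Mixed barcodes in neither lymphocyte gate held 19.2 CPM in IR and 3.73 CPM in Control.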

How the results depend on the processing

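For the 7 main values, 69 of 75 alternatives stayed inside the 95% counting interval and 6 did not. The log2 ratio of Ifng in T cells lay between -1.06 and -0.95 under other UMI and mitochondrial limits and gates and was -0.47 with mixed barcodes counted. The share of gated Ifng UMIs in T cells was 70.4% in Control and 50.9% in IR with free RNA subtracted, and 72.6% and 61.0% with mixed barcodes counted. Socs3 in monocytes was 0.77 without Plac8 and Ly6c2 among the markers. No call changed sign, but of the 15 called ratios 9 fell under 1.5-fold in 11 of 157 alternatives, among them Ifng in T cells with mixed barcodes counted, Ifng in macrophages (-0.56) without Plac8 and Ly6c2 and in monocytes (0.37) with 10 CPM added, and Socs3 in monocytes (0.57) without mitochondrial and ribosomal protein genes. Free RNA subtraction left no Ifng in IR monocytes or macrophages. Of 789 alternative values of the other 76 ratios, 14 moved outside their interval and 0 reversed. At 2-fold, 0 members were called in monocytes, mature DCs and collagen-expressing cells, and the populations with Socs3 called went from 6 to 1. No paired analysis was possible because each group had 1 library. The low depth of neutrophils, basophils and plasmacytoid DCs limits their values, and tumor-to-tumor spread cannot be seen.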
